A study of Mus musculus with 19 samples.

Results

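Open chromatin at 5 mouse gene loci, Lix1, Sall1, Grik3, Cnr1 and Kit, was described in libraries made with and without retinoic acid in the diet. The genes were chosen by measured values: in an earlier reading of these data each had a site whose peak summits separated the libraries on the diet from those off it. The diet contrast is therefore given below as a description with no test, and the tests concern genotype, mainly at the other regions of each locus. A region belonged to a locus when it lay inside the gene, or when an end of that gene was the nearest gene end within 100 kb. This gave 39 of 44884 regions, with 5 at Lix1, 6 at Sall1, 15 at Grik3, 6 at Cnr1 and 7 at Kit, and 23 of them lay inside a gene.

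The study used bulk ATAC-seq, in which a transposase cuts DNA that is not packed by nucleosomes, on cells of the embryonic day 14 forebrain that magnetic beads had separated by the progenitor surface protein Prom1. The 19 libraries were 4 controls (Foxc1 WT, no diet), 4 mutants (Foxc1 hith/LacZ, no diet), 5 diet controls (Foxc1 WT, RA diet) and 6 diet mutants (Foxc1 hith/LacZ, RA diet). The question set by the series is how neurogenesis depends on retinoic acid that the meninges, membranes wrapping the brain, release. Foxc1 is a transcription factor that the meninges need, the hith allele is a hypomorph and the LacZ allele carries an insertion. The library titled mutant 1 bears a Foxc1 WT genotype label that conflicts with its title, and groups were taken from the titles. The labels do not say whether libraries came from separate embryos, so each p-value covers no more than the spread among these libraries, which may be technical.

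The 5 genes have different roles. Sall1 encodes a zinc finger transcriptional repressor that kidney development needs, and Lix1 a protein named for its expression in the developing limb. Grik3 encodes a subunit of kainate receptors, which are glutamate-gated ion channels, Cnr1 the main cannabinoid receptor of neurons, and Kit the receptor tyrosine kinase for stem cell factor. Retinoic acid acts through nuclear receptors that bind pairs of the hexamer AGGTCA near their target genes. An accessible site away from a start site can be an enhancer, which none of the measurements here tests.

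In each library the 29112 summits with the best scores were kept, as many as the shortest deposited list holds (diet mutant 4), and a kept summit is called matched. Matched summits at most 200 bp apart were chained into a region. The rank of a summit counts from 1 for the best score in its library. The score place is 0 with no matched summit and up to 100 for the best rank. Lists held 77593 to 122591 summits in controls, 49804 to 115007 in mutants, 59106 to 91114 in diet controls and 29112 to 87470 in diet mutants, so they tended to be shorter on the diet. Sequencing depth is unknown, and list length stands in for it.

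Marker genes were checked by a matched summit within 1 kb of a gene end. Of 11 neural progenitor markers, 6 had one in all 19 libraries (Sox2, Vim, Fabp7, Slc1a3, Hes5 and Emx2), Prom1 itself had one in 13 and Pax6 in 1. Neuronal markers had one in all libraries for 3 of 5 genes, and meningeal markers for 1 of 6, Tbx18. None of the 5 endothelial, 5 microglial or 4 erythroid markers had one in all libraries, and 4, 4 and 3 of them had one in none. Meningeal markers with such a summit numbered 3 per control, 2 to 4 per mutant, 4 per diet control and 3 to 5 per diet mutant. Their part in the differences below was not tested.

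Promoter sequences show where start-site summits of Sall1, Cnr1 and Kit lie, against which the diet-split sites are set. Most regions matched in all 19 libraries lay outside the printed sequences. Sall1, Cnr1 and Kit had matched summits inside a RefSeq promoter window of 300 bases (250 before to 50 after a start site, assembly GRCm38.p6). The sequences run 5′ to 3′ on the gene's strand, and capitals mark the bases from the first to the last matched summit of any library. The Sall1 window is chr8:89043463-89043762 on the minus strand, with summits of 12 libraries. The Cnr1 window is chr4:33924394-33924693 and the Kit window chr5:75574737-75575036, both on the plus strand, each with summits of all 19 libraries.
Sall1: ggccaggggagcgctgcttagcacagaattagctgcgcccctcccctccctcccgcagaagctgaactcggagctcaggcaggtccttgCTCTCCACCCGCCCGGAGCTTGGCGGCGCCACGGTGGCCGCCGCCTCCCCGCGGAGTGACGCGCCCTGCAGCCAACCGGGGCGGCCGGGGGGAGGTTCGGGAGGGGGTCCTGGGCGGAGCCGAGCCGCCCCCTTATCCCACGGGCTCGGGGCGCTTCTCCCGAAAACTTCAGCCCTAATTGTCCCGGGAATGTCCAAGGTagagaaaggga
Cnr1: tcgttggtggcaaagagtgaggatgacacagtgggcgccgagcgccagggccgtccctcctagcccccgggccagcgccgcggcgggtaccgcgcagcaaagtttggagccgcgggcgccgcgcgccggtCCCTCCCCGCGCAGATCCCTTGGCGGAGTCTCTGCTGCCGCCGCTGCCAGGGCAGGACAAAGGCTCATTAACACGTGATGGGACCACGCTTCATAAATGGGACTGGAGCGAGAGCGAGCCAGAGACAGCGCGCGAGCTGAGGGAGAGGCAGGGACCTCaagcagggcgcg
Kit: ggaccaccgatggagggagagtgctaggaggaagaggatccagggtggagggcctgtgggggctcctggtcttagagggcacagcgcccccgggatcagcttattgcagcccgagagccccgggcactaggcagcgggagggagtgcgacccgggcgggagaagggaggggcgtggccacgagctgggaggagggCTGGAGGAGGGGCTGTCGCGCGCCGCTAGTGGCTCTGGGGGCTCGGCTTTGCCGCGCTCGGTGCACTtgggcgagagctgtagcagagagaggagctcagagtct

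The Kit summits of all 19 libraries fell within 67 bases across the start site, and the Cnr1 summits within 158 bases. The windows have a GC content of 70.0% for Sall1, 69.0% for Cnr1 and 69.0% for Kit, with 27, 33 and 20 CG dinucleotides, against a median of 52.7% and 7 over 32851 promoter windows. The Lix1 window held no summit, and its start-site summits lay at chr17:17402752-17402792, just past the window's end at 17402735. The Grik3 window, at 82.0% GC, held no summit, deposited or matched. The hexamer AGGTCA, searched on both strands, occurs in 16.3% of all promoter windows, and among those of the 5 genes it occurred in 1, the Cnr1 window at chr4:33924014-33924313, which held no summit. Pairs of it spaced by 5 or 2 bases (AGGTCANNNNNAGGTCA and AGGTCANNAGGTCA) occur in 0.00913% of windows each and in none of these genes' windows, which says only that those letters are not there.

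Of the 39 regions, 2 split all 19 libraries by diet in both genotypes: 1 inside Lix1 was matched in all 11 libraries on the diet and none of the 8 off it, and 1 upstream of Sall1 in all 8 off and none of the 11 on. They were the only such regions among all 44884 in either direction (0.00223% each way), and these are the values on which the loci were chosen. The count was 0 with 20000 summits per library, with all deposited summits and with ranks as a share of each library's own list. Grik3 and Kit each had a region that was 1 library short of that split. Cnr1 had no region within 100 kb that approached it, so the label of a clean split did not hold for Cnr1 under this rule. Within controls alone, 2 of the 39 regions were matched in all libraries on the diet and none off it (background 0.223%), and 2 the reverse (0.178%). Within mutants alone, the same counts were 1 (0.0535%) and 1 (0.0691%). In controls these were the most split regions of Lix1 and Grik3, and of Sall1 and Kit. In mutants they were those of Lix1 and Sall1. The loci were chosen for such sites, so the distance of these counts from the background follows from the choice. Looser still, 5 regions were matched only in libraries on the diet (5.77%) and 4 only in libraries off it (4.2%), and both counts include some of those regions. In all 19 libraries, 9 of the 39 regions were matched (29.0%).

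**Figure D1:**
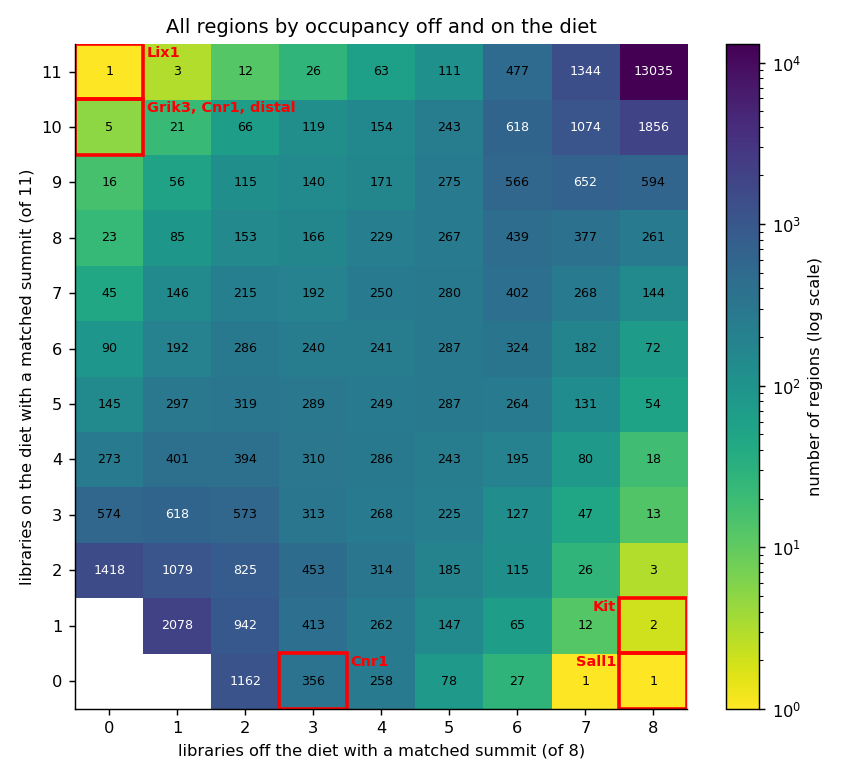
Number of regions for each combination of libraries off the diet (x axis, of 8) and on the diet (y axis, of 11) with a matched summit, coloured on a log scale, with the cells that hold the most diet-split region of each locus outlined in red. The corner cells of Lix1 and Sall1 hold 1 region each, while 13035 regions were matched in all libraries.

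Lix1 is on chromosome 17 (17402686-17459387, plus strand), and its diet-split region is chr17:17409168-17409287, 120 bp wide, inside the gene and 6.54 kb after the start site. Off the diet its summit ranked 30844, 35250, 36936 and 44913 in controls 1, 2, 3 and 4, and 42878, 49375, 31213 and 34967 in mutants 1, 2, 3 and 4. On the diet it ranked 18555, 12284, 14888, 17189 and 18597 in diet controls 1 to 5, and from 11211 to 26257 in the 6 diet mutants, with a median of 16029. All ranks on the diet were better than all ranks off it, in both genotypes, with 4587 ranks between the worst on (26257) and the best off (30844). The site was thus called in all 19 libraries: a weaker deposited summit lay there in 8 of 8 libraries off the diet. The mean score place was 44.0 ± 9.29 (SD, n = 5) in diet controls and 38.3 ± 20.2 (SD, n = 6) in diet mutants, and 0 in both groups off the diet.

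The separation at Lix1 was one of ranks. As a share of each library's own list, the summit stood at 15.5% to 54.3% on the diet and 28.8% to 70.2% off it, so those ranges overlapped. The authors' scores, the -log10 q of each summit, also overlapped, at 9.74 to 68.2 on the diet and 4.26 to 34.1 off it. Lists tended to be shorter on the diet, and the part of list length in the split was not tested.

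No other region of Lix1 split the libraries in this way. The start-site region, 0.086 kb into the gene, was matched in all 19 libraries with ranks among the best of each list, at a mean score place of 94.7 ± 0.387 (SD, n = 4) in controls and 92.6 ± 2.62 (SD, n = 5) in diet controls. At 22.5 kb into the gene, a region was matched in 2 of 4 controls, 2 of 4 mutants, 1 of 5 diet controls and 4 of 6 diet mutants. The difference in the percentage of libraries with a matched summit, on minus off the diet and averaged over genotypes, was 100 points at the split region. At the other 4 regions it ran from -31.7 to 18.3 points, with a median of -3.33. The lowest belonged to a region 46.4 kb into the gene, matched in 3 of 4 controls and in 1 library of each other group. The highest belonged to a region 39.5 kb into the gene. That region was matched in 1 of 5 diet controls, 1 of 6 diet mutants and no library off the diet.

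Sall1 is on chromosome 8 (89027242-89044162, minus strand), and its diet-split region is chr8:89073066-89073212, 147 bp wide and 29.0 kb upstream of the gene. Off the diet its summit ranked 28227, 25653, 17568 and 20132 in controls 1, 2, 3 and 4, and 19655, 15912, 28002 and 23782 in mutants 1, 2, 3 and 4. With the diet its ranks were 30832, 32633, 45983, 35264 and 33525 in diet controls 1 to 5. Among the diet mutants it ranked from 34282 to 57464, with a median of 43342 over the 5 that had a summit, and diet mutant 4, whose list is the shortest, had none. The groups did not overlap, and the direction was opposite to that at Lix1. Between the worst rank off the diet (28227) and the best on it (30832) lay 2605 ranks, fewer than at Lix1.

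A weaker summit remained at the Sall1 site in 10 of 11 libraries on the diet. As a share of the own list, the summit stood at 13.8% to 47.8% off the diet and 38.7% to 86.3% on it, overlapping in part. Score place was 21.4 ± 16.8 (SD, n = 4) in controls and 24.99 ± 17.9 (SD, n = 4) in mutants. Seen on the gene's strand, the median summit stood at 29 bp from the region's centre off the diet and at -79.5 bp on it (negative is upstream), with ranges of -73 to 73 bp and -130 to 69 bp.

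At the Sall1 start sites, 2 regions shared the libraries between them. The one at chr8:89043335-89043673, which covers the printed promoter, was matched in 3 of 4 controls, 3 of 4 mutants, 4 of 5 diet controls and 4 of 6 diet mutants. A neighbouring one at chr8:89042788-89042970, next to another annotated start site, was matched in the 5 libraries that lacked the first. Each library thus had a matched summit in exactly 1 of these 2 regions, which reach beyond the promoter windows, and neither followed the diet, with differences of -1.67 and 1.67 points. A region 91.0 kb upstream was matched in 18 of 19 libraries, missing in 1 mutant. The other 5 Sall1 regions ran from -4.17 to 14.2 points, with a median of 1.67.

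Grik3 is on chromosome 4 (125490259-125714173, plus strand), and its most diet-split region is chr4:125485752-125485883, 132 bp wide and 4.44 kb before the gene. It was matched in 5 of 5 diet controls and 5 of 6 diet mutants, and in none of the 8 libraries off the diet. Off the diet its summit ranked 29201, 44453, 61598 and 67090 in controls 1, 2, 3 and 4, and 56671, 59774, 46159 and 35842 in mutants 1, 2, 3 and 4. On the diet it ranked 10306, 22267, 18965, 22046 and 17067 in diet controls 1 to 5. In diet mutants 1 to 5 it ranked from 14148 to 23338, with a median of 16910, and in diet mutant 6 it ranked 36559. The ranges of ranks overlapped through diet mutant 6 alone, whose rank was worse than those of control 1 (29201) and mutant 4 (35842).

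Only 3 regions of all 44884, this one and the Lix1 region among them, were at least as split in that direction (91.7 points). The loci were chosen for such splits. A weaker summit lay at the Grik3 site in 8 of 8 libraries off the diet. As a share of the own list, the summit stood at 14.8% to 80.2% on the diet and 35.5% to 72.0% off it. On that measure diet mutant 4 stood worst of all libraries, at rank 23338 of 29112. The median rank was 17799 on the diet and 51415 off it, the widest distance between medians of the 5 loci.

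Of the 14 other Grik3 regions, 11 lay inside the gene. Among these, 5 were matched in all 19 libraries, at 44.6, 54.7, 155, 206 and 212 kb after the start site, and those at 99.7 and 215 kb were matched in 18. At the 54.7 kb region the score place was 84.8 ± 3.75 (SD, n = 4) in controls, 87.0 ± 1.97 (SD, n = 4) in mutants, 93.9 ± 1.19 (SD, n = 5) in diet controls and 94.2 ± 3.39 (SD, n = 6) in diet mutants. Occupancy was full there in every group, and the means on the diet stood above those off it. For the 5 regions matched in all 19 libraries, the score place difference is given in the order above. On minus off the diet, averaged over genotypes, it was 11.8, 8.12, 5.75, 9.63 and 6.97. The pooled SD within groups was 2.79 at 54.7 kb and at least 8.39 at the others of these 5. At the 99.7 and 215 kb regions the difference was 12.3 and -0.36. These diet differences were not tested. The lowest difference, -41.7 points, belonged to a region 12.1 kb before the gene that was matched in 3 of 4 controls, 1 of 4 mutants, 0 of 5 diet controls and 1 of 6 diet mutants. It lies on the same side of the gene as the split region and leaned the other way. The median of the 14 differences in points was 0, the only value that a region matched in every library can give.

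Kit is on chromosome 5 (75574987-75656722, plus strand), and its most diet-split region is chr5:75719035-75719147, 113 bp wide and 62.4 kb past the gene's end. It was matched in all 8 libraries off the diet, in none of the 5 diet controls and in 1 of 6 diet mutants. Off the diet its summit ranked 27492, 24128, 18117 and 26127 in controls 1, 2, 3 and 4, and 27807, 19271, 24371 and 10291 in mutants 1, 2, 3 and 4. On the diet it ranked 47810, 53762, 58042, 30919 and 35974 in diet controls 1 to 5. Diet mutant 2 ranked it 26585, inside the matched set, while diet mutants 1, 3, 5 and 6 ranked it 35467, 44947, 36373 and 36566 and diet mutant 4 had no summit there. The ranges of ranks overlapped through diet mutant 2 alone, whose rank was better than those of control 1 (27492) and mutant 1 (27807). As a share of the own list, the summit stood at 16.2% to 33.4% off the diet and 31.8% to 75.7% on it. Only 2 regions of all, this one and the Sall1 region, were at least as split in that direction (-91.7 points), and both loci were chosen for such splits.

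The surrounding Kit regions moved in differing directions. The neighbouring region, 64.0 kb past the gene's end, was matched in 4 of 11 libraries on the diet and 1 of 8 off it. Another, 42.9 kb past the gene's end, was matched in 2 of 4 controls, 2 of 4 mutants and none of the 11 libraries on the diet. Inside the gene, 75.9 kb after the start site, a region was matched in 0 of 4 controls, 1 of 4 mutants, 2 of 5 diet controls and 5 of 6 diet mutants (49.2 points). The Kit promoter region and a region 99.6 kb past the gene's end were matched in all 19 libraries. Over the 6 regions other than the lead, differences ran from -50.0 to 49.2 points with a median of 0, the widest such range of the 5 loci.

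**Figure D2:**
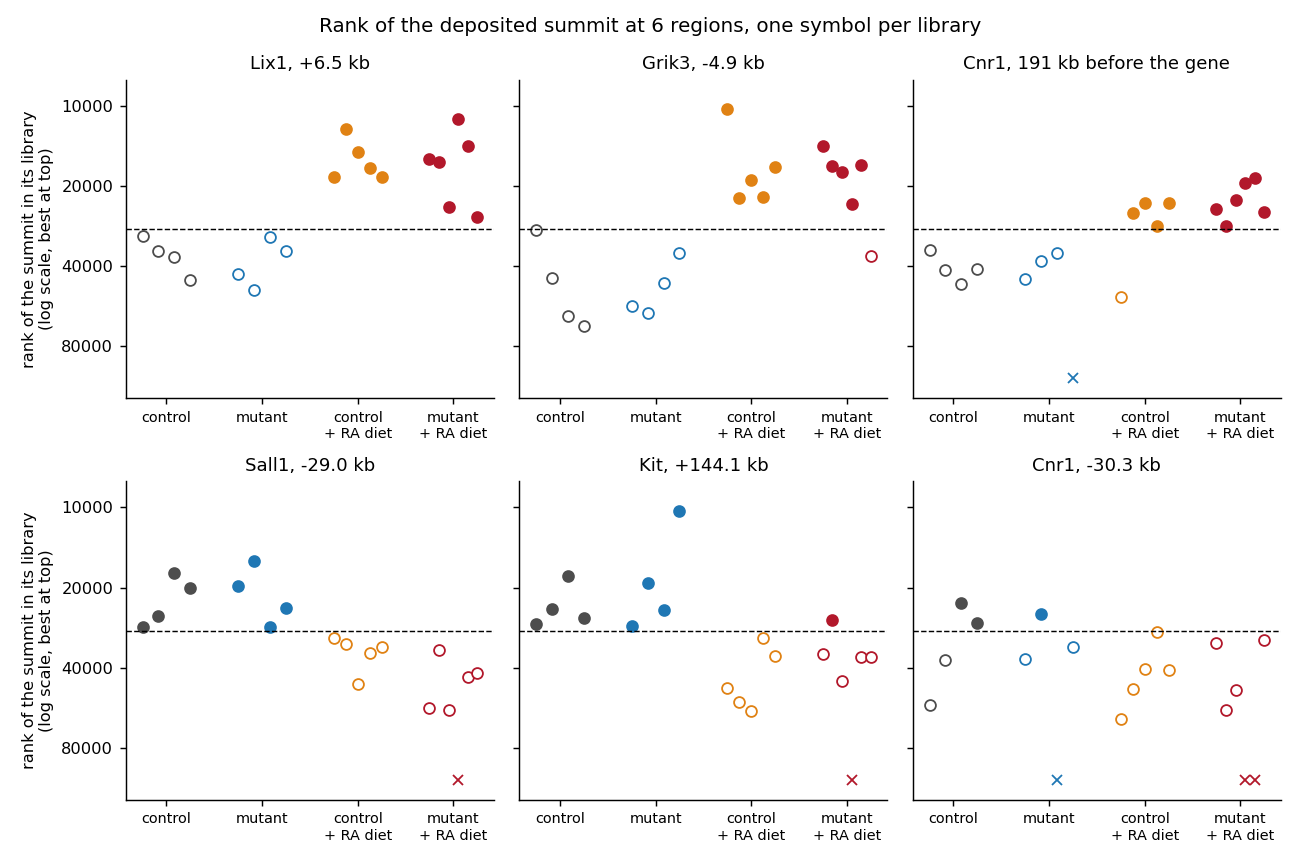
Rank of the deposited summit in each library (y axis, log scale, best at top) at 6 regions, with libraries along the x axis by group, filled symbols for matched summits, open ones for weaker summits and crosses for libraries with no summit. The dashed line marks rank 29112; all filled symbols at Lix1 are on the diet and all filled symbols at Sall1 are off it, and open symbols show that the sites were still called in most other libraries.

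Cnr1 is on chromosome 4 (33923171-33948831, plus strand). Its most diet-split region within 100 kb, chr4:33893976-33893999, is 24 bp wide and lies 29.2 kb before the gene. It was matched in 2 of 4 controls, 1 of 4 mutants and none of the 11 libraries on the diet (-37.5 points). Its summit ranked 54990, 37418, 22768 and 27082 in controls 1, 2, 3 and 4, and 37206, 25056 and 33448 in mutants 1, 2 and 4, with none in mutant 3. With the diet its ranks were 62158, 48182, 40343, 29268 and 40749 in diet controls 1 to 5, and 32218, 57747, 48286 and 31465 in diet mutants 1, 2, 3 and 6, with none in the other two. The ranges overlapped widely, and 2244 regions of all (5.00%) were at least as split in that direction.

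Another Cnr1 region, 82.8 kb before the gene, leaned the other way, being matched in 2 of 5 diet controls, 2 of 6 diet mutants and no library off the diet (36.7 points). The promoter region was matched in all 19 libraries. A region 21.4 kb after the start site was matched in 3 of 4 controls, 4 of 4 mutants, 5 of 5 diet controls and 5 of 6 diet mutants. The median difference of the 5 regions other than the lead was 0.

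Further out than the rule allows, and noted after its values were seen, a region at chr4:33731870-33732022 had Cnr1 as the gene with the nearest end, 191 kb away. It was matched in 4 of 5 diet controls, 6 of 6 diet mutants and none of the 8 libraries off the diet (90 points). Its summit ranked 34750, 41349, 46654 and 41100 in controls 1, 2, 3 and 4, and 44755, 38248 and 35626 in mutants 1, 2 and 3, with none in mutant 4. Diet controls 1 to 5 ranked it 52218, 25237, 23196, 28232 and 23210, and diet mutants from 18763 to 28351 with a median of 23497. Diet control 1 was the exception on the diet. A region 187 kb from the gene was matched in 5 of 8 libraries off the diet and none of the 11 on it (-62.5 points), so neighbouring sites again leaned in opposite directions. Nearest distance names no target gene.

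The 100 kb limit of the rule fell between a Kit region at 99.6 kb from the gene, matched in all 19 libraries, and a Grik3 region at 100.3 kb, matched in 3 of 6 diet mutants and no other library.

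**Figure D3:**
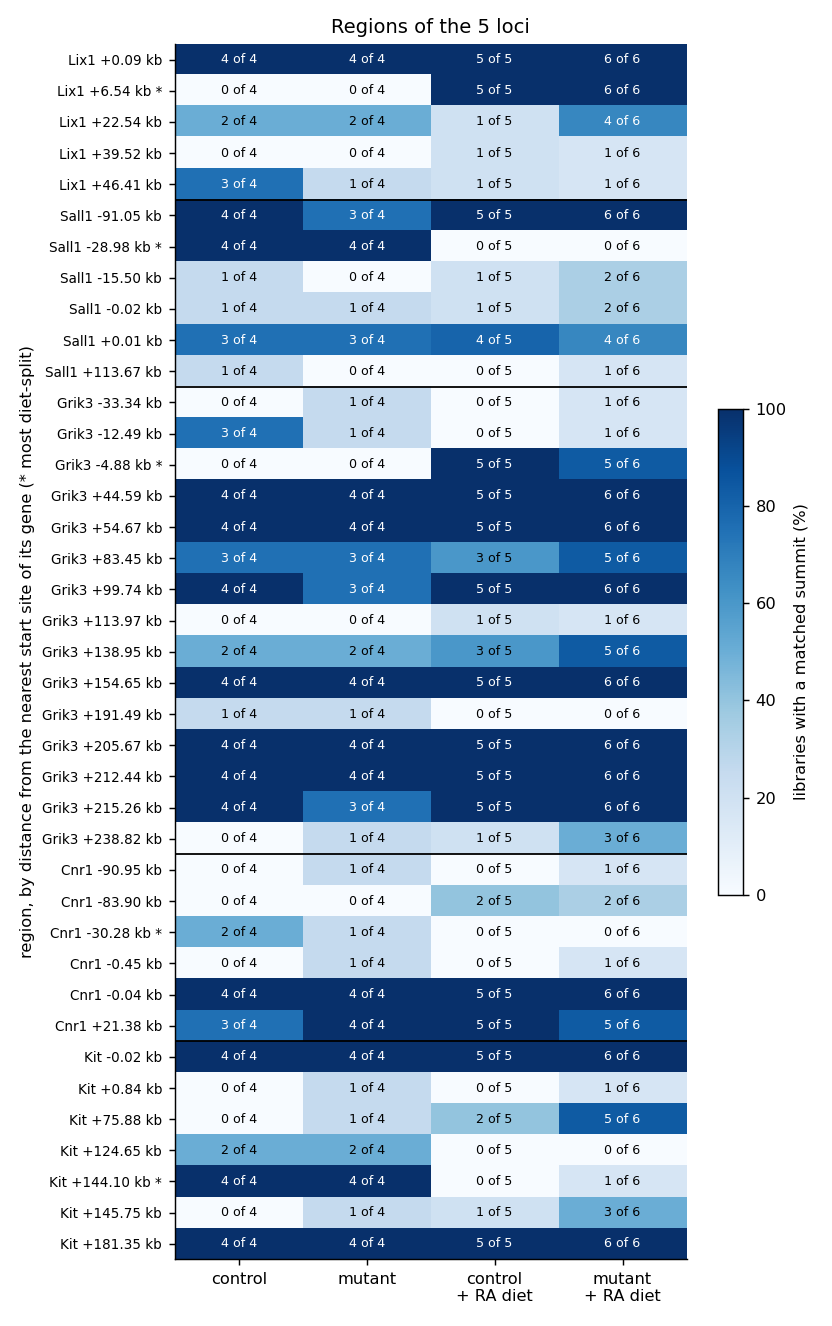
Percentage of libraries of each group (columns) with a matched summit in each of the 39 regions (rows, by distance in kb from the nearest start site), with the number of libraries printed in each cell and an asterisk on the most diet-split region of each locus. Dark rows across all 4 groups are the 9 regions matched in all 19 libraries, and 4 of the 5 asterisked rows change from 0 to nearly all libraries, or the reverse, between the columns off and on the diet.

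Summit positions around the 4 most split regions spread beyond the matched range in part. The weaker summits within 350 bp of the centre that fell outside the range of the matched ones were 3 of 8 at Lix1, 5 of 10 at Sall1, 5 of 10 at Grik3 and 3 of 9 at Kit. At Lix1 the median position was 14.5 bp off the diet and -20 bp on it, and at Sall1 29 bp and -79.5 bp. At Grik3 both medians stood at 0, and at Kit they stood at -10 bp off the diet and -0.5 bp on it. With a matched summit counted within 1 kb of the region, Lix1 and Sall1 remained split. In these bulk samples, fewer cells with an open site and less cutting of it in each cell cannot be told apart.

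**Figure D4:**
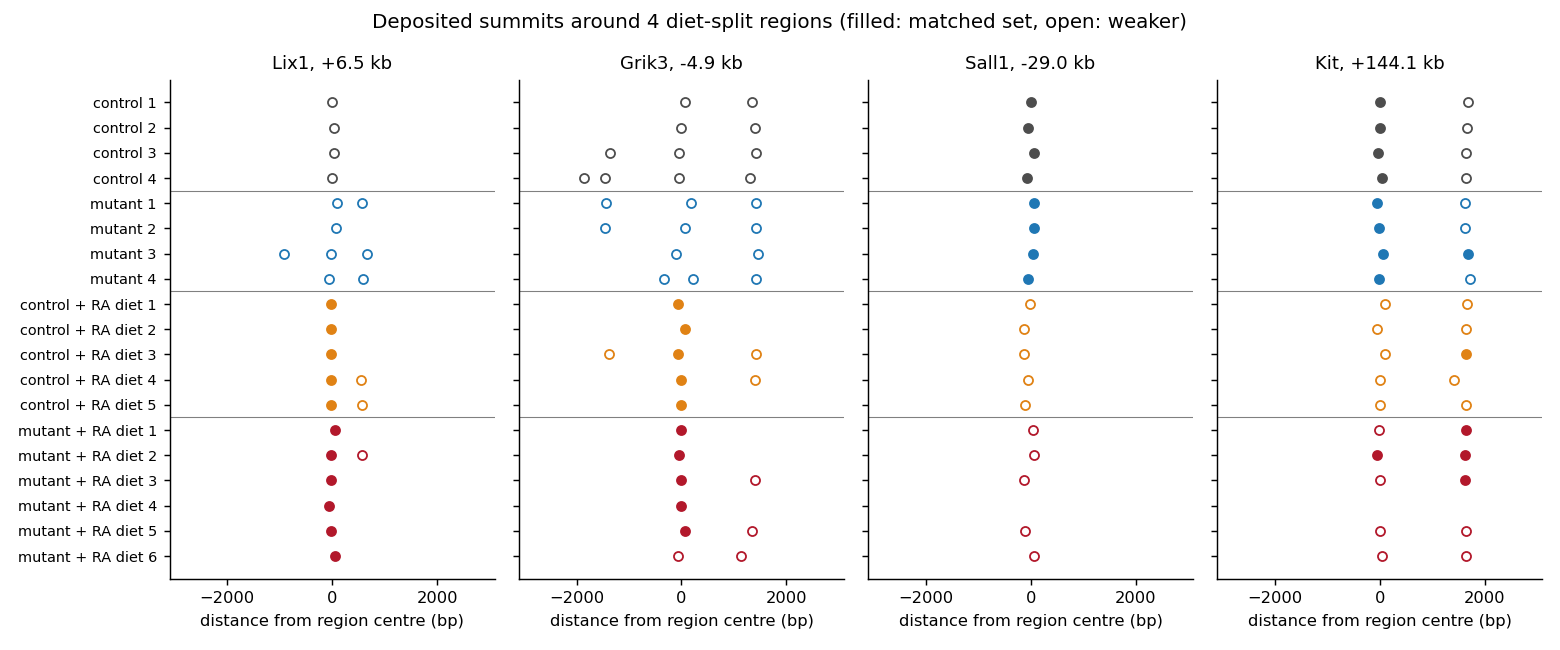
Deposited summits of each library (rows, by group) around the centre of 4 regions (x axis, distance from the centre in bp, positive towards the gene's 3′ end), filled where matched and open where weaker. The summits near 0 change from open to filled, or the reverse, with the diet, and a second set at Kit further from the gene does not follow the same pattern.

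Sites mostly too weak for the matched set were also present at these loci. When all deposited summits were chained, 7 of 12 chains at Lix1, 20 of 26 at Sall1, 39 of 54 at Grik3, 6 of 12 at Cnr1 and 14 of 21 at Kit held a matched summit in fewer than 2 libraries, against 70.1% of 150489 chains in all. Their median difference, on minus off the diet, was -15, -25, -20, -29.6 and -16.3 points in that order. Over all such chains of the genome the median was -21.7 points and 83.8% were called less often on the diet, so the medians at these loci stood near the background. Of the chains, 6 of 7 at Lix1, 15 of 20 at Sall1, 34 of 39 at Grik3, 6 of 6 at Cnr1 and 11 of 14 at Kit were lower on the diet. The others were higher, up to 44.2 points at Sall1 and 18.3 at Grik3. Deposited lists were also shorter on the diet, and the part of list length was not tested.

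Counts of summits per gene include the lead sites and are given by diet as a description. Matched summits assigned to Lix1 numbered 3, 3, 2 and 1 in controls 1, 2, 3 and 4, and 1, 3, 2 and 1 in mutants. On the diet they numbered 4, 2, 2, 3 and 2 in diet controls and 2 to 4 in diet mutants. Sall1 had 3, 3, 4 and 4 in controls and 2, 3, 2, 2 and 2 in diet controls, with 2 or 3 in mutants and diet mutants. On the log2(summits + 0.5) scale, the fitted diet difference is given with its SE. In controls it was 0.21 (SE 0.30) for Lix1, -0.57 (0.16) for Sall1, 0.02 (0.15) for Grik3, 0.14 (0.26) for Cnr1 and -0.30 (0.20) for Kit. In mutants it was 0.77 (SE 0.29), -0.12 (0.15), 0.30 (0.15), -0.11 (0.25) and -0.17 (0.20) in the same order. For Grik3 the fitted counts were lower than those of the locus rule. Their mean was 8.25 against 9.25 in controls and 9.67 against 10.8 in diet mutants. The counts of Lix1 overlapped between diets in both genotypes, and those of Sall1 overlapped in both as well, through the 3 summits of diet control 2 in controls.

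Genotype was tested at every region by an exact permutation of genotype within diet, two-sided, with Benjamini-Hochberg adjustment over all 44884 regions. The 5 lead regions were picked by their diet difference averaged over both genotypes, which constrains genotype differences at the most split ones. At all 5 the test is therefore given no weight, and it bears on the 34 others. None of the 39 regions passed at an adjusted p under 0.05, and none of all regions did (0.0%, lowest adjusted p = 0.745). Unadjusted, 2 of the 39 (5.13%), neither of them a lead, had p under 0.05, against 6.44% of all regions, so the share at these loci was near the background. Of the 39, 22 were higher and 17 lower in mutants, with a median difference of 1.38 in score place against -0.27 over all regions. The smallest p this design allows is 3.09e-05 within diet, 0.0286 off the diet and 0.00216 on it. With adjustment over 44884 regions, a single region at any of these values could not pass. The absence of calls therefore does not show that the genotypes are alike.

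At the lead regions the score place in mutants minus controls, within diet, is given as a description. It was -2.84 at Lix1, 1.82 at Sall1, -2.66 at Grik3, -1.85 at Cnr1 and 6.79 at Kit. At Lix1 and Sall1 it was 0 in all libraries of both genotypes on 1 side of the diet, as their choice fixes.

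The 2 regions with unadjusted p under 0.05 were other sites of Kit and Cnr1. The Kit region 75.9 kb into the gene had a score place of 0 in all 4 controls and in mutants 1, 2 and 3, and 22.7 in mutant 4. On the diet it stood at 1.16 ± 1.68 (SD, n = 5) in controls and 22.0 ± 18.9 (SD, n = 6) in mutants, a range of 0 to 46.9. Mutants were higher by 13.2 within diet (exact permutation p = 0.0195, adjusted p = 0.745). The Cnr1 region 21.4 kb after the start site stood at 21.8 ± 16.5 (SD, n = 4) in controls, 56.7 ± 20.7 (SD, n = 4) in mutants, 39.5 ± 21.3 (SD, n = 5) in diet controls and 55.9 ± 28.9 (SD, n = 6) in diet mutants. Mutants were higher by 25.7 (exact permutation p = 0.0279, adjusted p = 0.745), and groups overlapped on both diets. Neither difference held after adjustment.

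Within 1 diet, the same exact test gave an unadjusted p under 0.05 at 1 of the 39 regions off the diet (1.86% of all regions) and 2 on it (2.54%). Off the diet it was the Kit promoter region, at 57.2, 65.3, 65.7 and 65.8 in controls against 66.8, 70.0, 73.9 and 76.9 in mutants (exact permutation p = 0.0286, the smallest the design allows, adjusted p = 0.976). On the diet they were the Kit region above, 20.8 higher in mutants (exact p = 0.0390), and a Grik3 region 206 kb after the start site, with a difference of -8.26 in mutants (exact p = 0.00649), both with an adjusted p of 1.

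**Figure D5:**
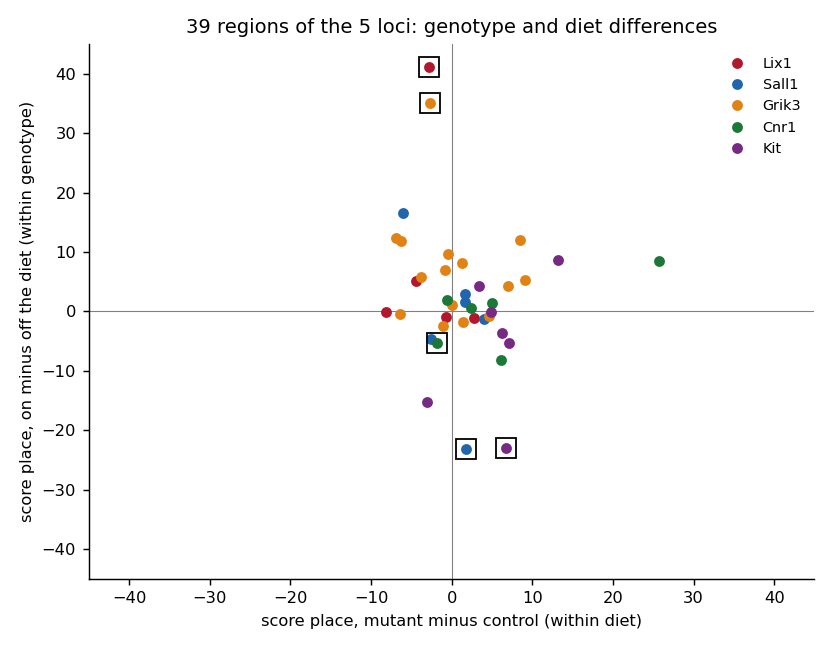
Difference in score place for each of the 39 regions, mutant minus control within diet (x axis) against on minus off the diet within genotype (y axis), coloured by gene, with boxes around the most diet-split region of each locus. The boxed regions stand where their choice by diet puts them, and among the others the Cnr1 region 21.4 kb after the start site lies furthest right at 25.7.

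Summits per gene were compared between genotypes with limma, with Benjamini-Hochberg adjustment over 10827 genes. The Grik3 counts were the lower ones given above. None of the 5 genes passed off the diet, where 0 genes of all did (0.0%, 617 or 5.7% at an unadjusted p under 0.05). None passed on it, where 3 of all did (0.0277%, 332 or 3.07% unadjusted). The lowest limma adjusted p there was 2.8e-11. Genes with constant counts had almost no fitted spread (SE 6.7e-08 for Lix1l, a relative of Lix1). Whether the 3 calls come from near-constant counts was not tested. Off the diet the log2 difference, mutant minus control, was -0.31 for Lix1, -0.30 for Sall1, -0.08 for Grik3, 0.27 for Cnr1 and 0.25 for Kit. On the diet it was 0.26, 0.15, 0.20, 0.03 and 0.39 in the same order. Of these 10 values, none had an unadjusted p under 0.05, and adjusted p from limma ran from 0.794 to 1.

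Genes related to the 5 by family or pathway were compared by diet with the same limma fit. Of 23 such genes, 18 had a mean of at least 1 matched summit, and Sall4, Neto2, Pdgfrb, Csf1r and Flt3 did not. Among the 18, Cnrip1, Daglb and Lix1l had 1 matched summit in every library, so they could not add a call. Kdr and Pdgfra had 2 in every control and diet control, so the same held for them in controls. In controls 0 of 18 were called (0.0% of all genes; 0 of 18 against 462 or 4.27% of all unadjusted), with 4 higher and 8 lower on the diet. In mutants 0 of 18 were called (0.0185% of all genes; 1 of 18 against 738 or 6.82% unadjusted), with 7 higher and 8 lower. The 1 was Kitl, which encodes stem cell factor, the ligand of Kit, at a log2 difference of -0.48 (SE 0.18, limma adjusted p = 0.568) on against off the diet in mutants. In controls the Kitl difference was 0.36 (SE 0.19, limma adjusted p = 1). Median differences of the 18 were 0 in both genotypes, as over all genes.

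Regions of other genes with the most similar score place over the 19 libraries were listed for each lead region by Spearman's rho, as a description, since all share the same libraries. For Lix1 these were regions of Syt16 (rho = 0.917), matched in 11 of 11 libraries on the diet and 1 of 8 off it, and Raly (0.908), matched in all 19. For Sall1 they were regions of Mthfd1 (0.902), matched in 6 of 8 libraries off the diet and none on it, and Lzts1 (0.893). For Grik3 they were regions of Gm46353 (0.946), matched in 9 of 11 on the diet and none off it, and B3gnt6 (0.911). For Kit they were regions of Gse1 (0.872) and Ssr3 (0.861), matched in 18 and 19 libraries. For Cnr1, regions of Atic and Ints12 had a rho of 1.0 over 3 libraries with a matched summit, which leaves few points to compare.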

How the data were processed

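Bulk ATAC-seq libraries (19) were deposited as lists of 1 bp peak summits, 1 list per library and 1547369 summits in all. Per the submitters' processing notes, BWA, MACS2, Signac and DiffBind and the builds mm10 and GRCm38 were used, without versions or roles. The score of each summit is a -log10 q value deposited by the authors, whose smallest values sat at a q of 0.0499, and it is not scaled between libraries. Tests and regions therefore used ranks within a library, and scores are printed once, for Lix1, as a description. Read counts were not used here, so no depth or counting interval is given, and the number of libraries limits the precision.

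The best 29112 summits of each library were kept, chained at 200 bp, and regions with at least 2 libraries were retained. Genes, start sites and promoter sequences came from RefSeq (GRCm38.p6, 21887 protein-coding genes). Exon annotation and the genome sequence of the regions were not used here. No 2 libraries shared more than 25.3% of identical matched summits (lowest pair 2.98%). Python 3.11.15 with numpy 2.4.6 and pandas 2.3.3 made the regions and exact permutations. R 4.3.3 with limma 3.58.1 (trend, robust, 1 coefficient per group) fitted log2(summits + 0.5) per gene where the mean over libraries was 1 or more. Both tests were first run on simulated data, normal values for the permutation and Poisson counts for limma. Those runs checked the code, not how the tests behave on the many tied zeros of score place or on constant counts.

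The members and lists were chosen with earlier results of these data known. The named genes are the 5 loci, the lead region of each (the largest absolute difference in the share of libraries with a matched summit on against off the diet), the 2 regions of other genes most like each lead, and related genes that passed or headed their list by p. Alternatives were other set sizes, chaining at 100 or 500 bp, presence in place of score place, an offset of 1, no filter, gene bodies with 5 kb, a replicate block and leaving out each library. Set sizes of 10000, 20000 and 48323, a reach of 1 kb and the share of the own list were chosen after seeing the data.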

Additional observations from a re-analysis of the deposited data

Results flagged for a closer look

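Among 39 sets of values tested for a library far from the rest of its group, 4 stood out. All 4 were counts of matched summits per gene, which take few whole values. A library that differs from otherwise equal counts is always flagged. The chance rate of about 1 in 20, which holds for continuous values, therefore does not apply to these counts. Diet control 2 had 3 matched summits at Sall1 where the other 4 diet controls had 2. Mutant 3 had 2 at Sall1 where the other 3 mutants had 3. At Kit, mutant 3 had 5 where the other 3 mutants had 4. Diet mutant 6 had 2 at Kit where the other 5 diet mutants had 4 or 5.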

How the results depend on the processing

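The split of 2 loci, Lix1 and Sall1, depended on how many summits were kept. The count of split loci was 0 with 14556, 10000 or 20000 summits per library, with 48323 and diet mutant 4 left out, with all deposited summits, and with ranks as a share of the own list. It was 2 when chained at 100 or 500 bp and with a reach of 1 kb. Lix1 was split for set sizes from 26257 to just under 30844, and Sall1 from 28227 to just under 30832. With 20000 summits, the Lix1 region was matched in 9 of 11 libraries on the diet and 0 of 8 off it, and the Sall1 region in 0 of 11 and 3 of 8. As a share of the own list, the counts were 9 and 2 at Lix1, and 0 and 7 at Sall1. Without 1 library in turn the count ran from 2 to 3: without diet mutant 2 it was 3, with Kit added, and without diet mutant 6 it was 3, with Grik3 added. Without mutant 1 it was 2.

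No member region, member gene or related gene was called under any alternative run (0 in each, 0 to 0 without 1 library in turn). For a single member region a call was out of reach, given the smallest p of the design. With the replicate block the counts were 0 for member genes and 0 for related genes. Summit counts of libraries with the same number showed little shared deviation (correlations -0.138 to 0.157). Counts of so few summits per gene cannot settle whether the numbers pair libraries by litter or batch. Over all genes, limma calls on the diet by genotype were 3, and 0 with 14556 summits, all summits, gene bodies or the block. Calls by diet in mutants were 2 (0 to 7 over the alternatives), by diet in controls 0 (0 to 3) and by genotype off the diet 0 (0 to 1). The causes of these changes were not tested.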
